A study of Bos taurus with 31 samples.

Results

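Hepatocytes make most of the proteins secreted into blood plasma, and 4 of their genes were followed in bovine fetal liver: ALB (ENSBTAG00000017121, serum albumin), TF (ENSBTAG00000007273, transferrin), HP (ENSBTAG00000006354, haptoglobin) and SERPINA1 (ENSBTAG00000018843, alpha-1-antitrypsin). They were listed by gene identity, but with earlier results of these data known. All 4 listed identifiers were found among the 27607 genes of the count table. The symbols come with that choice and could not be checked, because the table carries identifiers alone. Gene expression had been measured by RNA sequencing in liver from 31 female fetuses on day 83 of gestation, each library being 1 fetus.

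The dams were Angus-cross heifers mated by artificial insemination to a single sire with female-sexed semen, and every dam ate the same basal mixed ration, in which ground corn and modified distillers grains plus solubles were mixed with corn silage and triticale hay. NoVTM_LG dams (8 fetuses) had no premix and a target gain of 0.28 kg per day. VTM_LG dams (8 fetuses) had the same target gain and were also given a vitamin and mineral premix in ground corn, 0.45 kg per day, starting between 71 and 148 days ahead of breeding. NoVTM_MG dams (8 fetuses) had no premix but, from breeding, a starch-based protein and energy supplement (wheat midds, ground corn, urea, fish oil, ethoxyquin and dried distillers grains plus solubles), for a target gain of 0.79 kg per day. VTM_MG dams (7 fetuses) had both the premix and the protein and energy supplement. The fetuses of all groups thus share sex, sire, stage and basal ration. The comparisons ask whether the premix, the rate of gain, or both together changed the transcripts of these genes. The higher target gain came with the protein and energy supplement, and the premix came in ground corn. The parts of each treatment cannot be told apart, so gain and premix below stand for the whole treatment. In the names of contrasts, supplementation means the premix.

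Such proteins carry a signal peptide and leave the cell through the secretory pathway. Albumin is the most abundant protein of adult plasma, carries fatty acids, bilirubin and metals, and sets much of the oncotic pressure. Transferrin carries iron to dividing cells, and in the fetus the red cell precursors that take it up lie in the liver itself. Haptoglobin binds haemoglobin freed from red cells and is an acute-phase protein, scarce in the plasma of healthy cattle and raised by inflammation. Alpha-1-antitrypsin inhibits neutrophil elastase and related serine proteases.

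Reads were distributed very unevenly over these genes. SERPINA1 held 3.61% ± 0.313 of all counts (SD, n = 31), ALB held 3.48% ± 0.469 and TF held 1.43% ± 0.221. HP held 0.00143% ± 0.000322. Among the 21921 genes with any count, SERPINA1 had rank 3 by reads, ALB had rank 4, TF had rank 8 and HP had rank 7309. These ranks are of reads, not of transcripts: gene lengths were not at hand, so levels were not compared between genes per length. The tissue label was liver, and 3 of the 4 hepatocyte genes were among the 8 genes with the most reads; other hepatocyte markers were not analysed here. In all, the 4 genes took 8.52% ± 0.765 of the counts of a library, between 5.24% and 9.55%.

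The low end of that range was a single fetus, VTM_LG replicate 4, in which the 4 genes took 5.24% of counts. This library and VTM_LG replicate 7 stood apart from the rest over all tested genes, at 63.0 and 37.9 on the first principal component, against -20.2 to 6.69 for the other 29 libraries. Without both, the summed share lay between 7.72% and 9.55%. Library totals were 13062894 to 18458776 counts, so a mean of 514460 ALB, 210968 TF and 532508 SERPINA1 counts per library left a counting error of 0.139%, 0.218% and 0.137% of the level. HP had a mean of 211 counts per library, and counting alone gave it a coefficient of variation of 6.89%.

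Levels are given from here as CPM, counts scaled to a common library size by TMM (trimmed mean of M values). ALB ran from 33802 to 37094 CPM in NoVTM_LG, with a median of 36321 and a mean of 36096 ± 1031 (SD, n = 8). In VTM_LG it ran from 17024 to 36869 CPM, with a median of 31650 (mean 30365 ± 6028, n = 8). In NoVTM_MG the range was 27711 to 41169 CPM, with a median of 36921 (mean 35860 ± 4346, n = 8), and in VTM_MG it was 31421 to 42557 CPM, with a median of 38654 (mean 37626 ± 4376, n = 7). All 4 ranges of this main carrier protein of plasma overlapped. VTM_LG was the low group: 7 of its 8 fetuses were below the median of the whole series, 36302 CPM, while 5 of the 7 VTM_MG fetuses were above it. The order of group means was VTM_MG, NoVTM_LG, NoVTM_MG and VTM_LG, and each neighbouring pair differed by less than the larger of their SDs.

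TF had its group means in the same order as ALB. It ran from 12884 to 16746 CPM in NoVTM_LG, with a median of 15244 (mean 14970 ± 1223, SD, n = 8), and from 6651 to 15694 CPM in VTM_LG, with a median of 12869 (mean 12626 ± 2852, n = 8). In NoVTM_MG it ran from 12430 to 18929 CPM, with a median of 14804 (mean 14625 ± 2106, n = 8), and in VTM_MG from 12511 to 18826 CPM, with a median of 14763 (mean 15145 ± 2457, n = 7). All 4 ranges of the iron carrier overlapped, and the means of NoVTM_LG, NoVTM_MG and VTM_MG lay closer together than the SD of any of them.

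HP was detected in all 31 libraries at a low level. It ran from 9.69 to 17.3 CPM in NoVTM_LG, with a median of 14.997 (mean 14.5 ± 2.78, SD, n = 8), and from 8.95 to 16.7 CPM in VTM_LG, with a median of 13.1 (mean 12.8 ± 2.89, n = 8). In NoVTM_MG it ran from 10.4 to 19.4 CPM, with a median of 14.5 (mean 14.97 ± 3.14, n = 8), and in VTM_MG from 8.51 to 20.7 CPM, with a median of 15.2 (mean 14.9 ± 4.14, n = 7). The ranges overlapped almost wholly, and the highest and the lowest fetus of the series were both in VTM_MG.

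SERPINA1 had a flat group profile. It ran from 31805 to 42631 CPM in NoVTM_LG, with a median of 36452 (mean 36511 ± 3709, SD, n = 8), and from 30813 to 44778 CPM in VTM_LG, with a median of 36831 (mean 36931 ± 4893, n = 8). In NoVTM_MG it ran from 31378 to 41800 CPM, with a median of 35853 (mean 36308 ± 3449, n = 8), and in VTM_MG from 31150 to 40620 CPM, with a median of 34939 (mean 34678 ± 3501, n = 7). All 4 ranges of this protease inhibitor gene overlapped, and the means of neighbouring groups differed by less than the SD of either. VTM_LG, the lowest group for ALB, TF and HP, had the highest SERPINA1 mean.

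**Figure D1:**
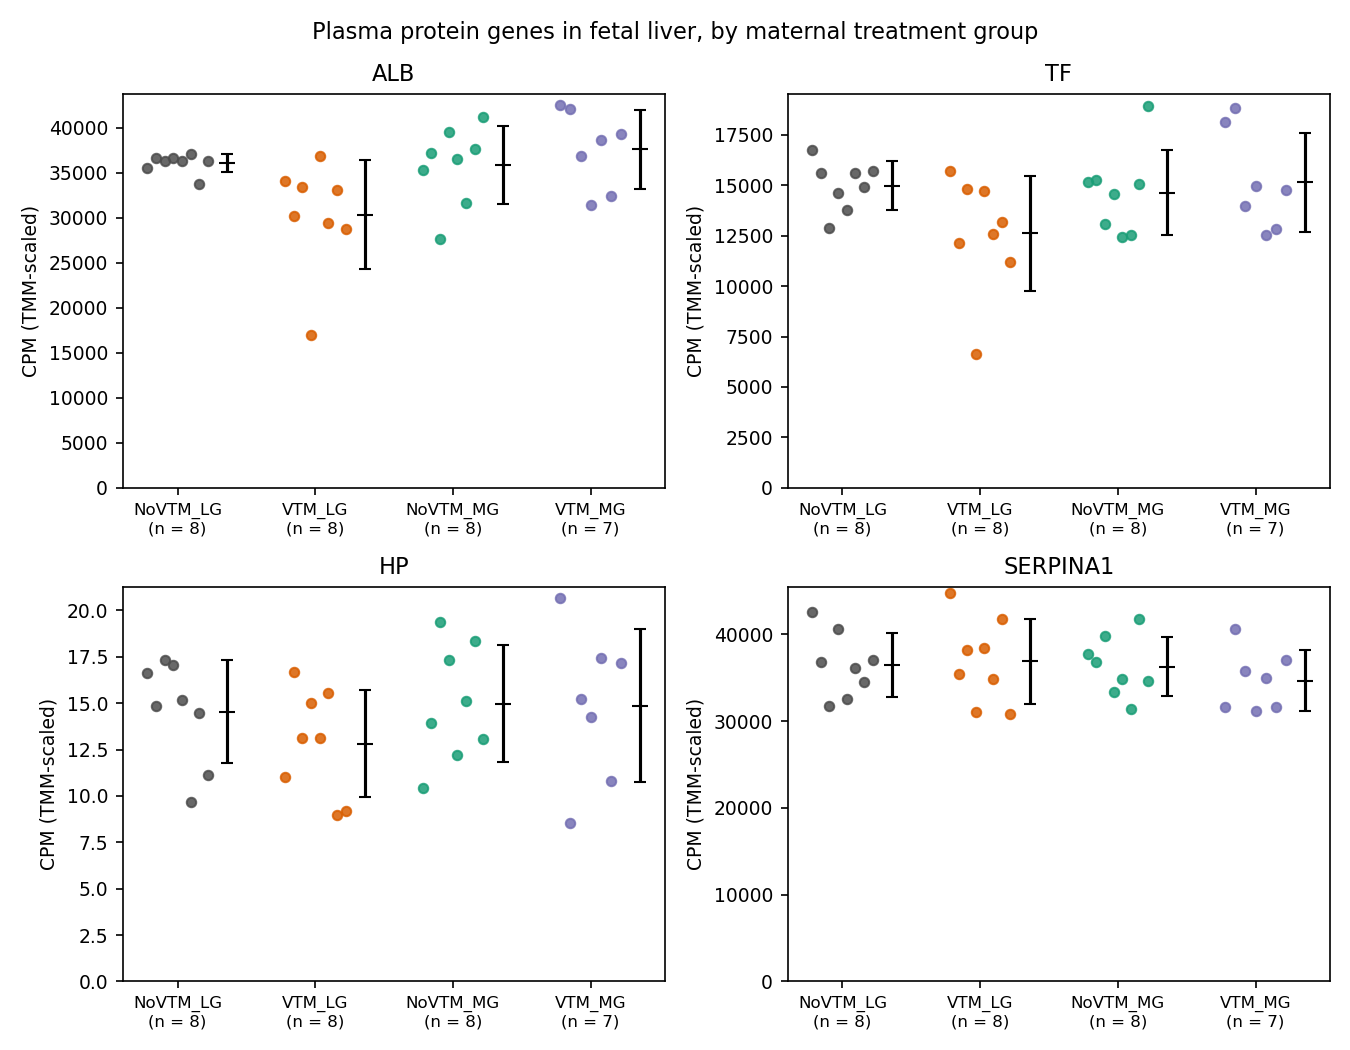
CPM (TMM-scaled) of ALB, TF, HP and SERPINA1 in each fetus by maternal group; points are fetuses, and the bar beside them is the mean with 1 SD. The lowest ALB (17024 CPM) and TF (6651 CPM) values belong to the same VTM_LG fetus, and the groups overlap for every gene.

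None of the 4 genes passed an adjusted p of 0.05 in any of 9 contrasts, tested by edgeR's quasi-likelihood test over 14228 genes with Benjamini-Hochberg adjustment. The background was as sparse: 0.0211% of tested genes were called for gain averaged over supplementation, and 0% in each of the other 8 contrasts. Of the 36 tests of these genes, 5 had an unadjusted p below 0.05, 4 of them for ALB and 1 for TF, and the smallest adjusted p was 0.252. Over all genes, 2.85% to 14.8% had an unadjusted edgeR p below 0.05, depending on the contrast. In the contrasts counted for ALB or TF, this share was 14.8% for VTM_MG against VTM_LG, 8.25% for VTM_LG against NoVTM_LG, 8.94% for VTM_LG against NoVTM_MG and 10.7% for the interaction. DESeq2 also called 0 of 36, with 7 unadjusted p-values below 0.05, and limma voom called 0 of 36 with 5. The smallest adjusted p was 0.172 in DESeq2 and 0.268 in limma voom.

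The contrast that came nearest was VTM_MG against VTM_LG, the effect of gain with its protein and energy supplement in dams given the premix. ALB was at 37626 CPM against 30365 CPM, an edgeR log2 fold change of 0.31 ± 0.11 (SE), or 1.24-fold with a 95% interval of 1.06 to 1.45; its unadjusted p was 0.00884 and its adjusted p 0.252. TF gave 0.26 ± 0.13 on the log2 scale, 1.20-fold with an interval of 1.01 to 1.43, with an edgeR adjusted p of 0.329. HP gave a log2 fold change of 0.21 (adjusted p 0.541 by edgeR) and SERPINA1 gave -0.09 (adjusted p 0.662). Neither carrier gene passed the threshold. Over all genes tested, the median size of the log2 fold change in this contrast, its sign ignored, was 0.12. The 4 genes did not all move the same way, and they were not tested as a set.

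Part of the size of these differences came from 1 library. With VTM_LG replicate 4 left out, the log2 fold change of VTM_MG against VTM_LG was 0.23 for ALB and 0.17 for TF, with edgeR adjusted p-values of 0.536 and 0.637. Over the 31 fits that each left out 1 library, the adjusted p for ALB lay between 0.136 and 0.536. The log2 fold change of ALB stayed positive throughout, between 0.23 and 0.35.

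VTM_LG against NoVTM_LG, the effect of the premix at low gain, has the same VTM_LG libraries in it and is no separate evidence. Here ALB had a log2 fold change of -0.25 ± 0.11 (SE), or 0.841-fold, with an edgeR adjusted p of 0.601. TF was also at -0.25 ± 0.12 (adjusted p 0.601 by edgeR), HP at -0.18 (adjusted p 0.732) and SERPINA1 at 0.02 (adjusted p 0.966). Without VTM_LG replicate 4, ALB was at -0.17 and TF at -0.15. Against NoVTM_MG, the same VTM_LG libraries gave log2 fold changes of -0.24 for ALB, -0.21 for TF, -0.22 for HP and 0.02 for SERPINA1, with edgeR adjusted p-values of 0.536 to 0.953.

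The 3 contrasts without VTM_LG gave small values. Between NoVTM_MG and NoVTM_LG, the effect of gain in dams without premix, log2 fold changes were -0.01 for ALB, -0.03 for TF, 0.04 for HP and -0.01 for SERPINA1. Between VTM_MG and NoVTM_MG, the effect of premix at moderate gain, they were 0.07, 0.05, -0.01 and -0.07 in the same order of genes. Between VTM_MG and NoVTM_LG, which differ in both factors, they were 0.06, 0.02, 0.03 and -0.07. The intervals of these contrasts still allowed moderate changes: for ALB in VTM_MG against NoVTM_LG, the 95% interval ran from 0.891-fold to 1.22-fold. Their width rests on a spread estimated for each gene over all groups, so the spread of VTM_LG enters it too.

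Averaged over the other factor, gain gave ALB a log2 fold change of 0.15 ± 0.08 (SE), or 1.11-fold with an interval of 0.995 to 1.24 (edgeR adjusted p 0.640). TF, HP and SERPINA1 were at 0.11, 0.13 and -0.05, with edgeR adjusted p-values of 0.743 to 0.845. Supplementation averaged over gain gave -0.09 for ALB, -0.10 for TF, -0.10 for HP and -0.02 for SERPINA1, each with an edgeR adjusted p of 0.9996. The interaction, which tests whether the effect of gain differs with the premix, gave ALB 0.32 ± 0.15 on the log2 scale (unadjusted p 0.0474, edgeR adjusted p 0.464). TF was at 0.30, HP at 0.17 and SERPINA1 at -0.08. The difference between supplemented and unsupplemented dams in the effect of gain was therefore not past the threshold for any of the 4 genes.

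**Figure D2:**
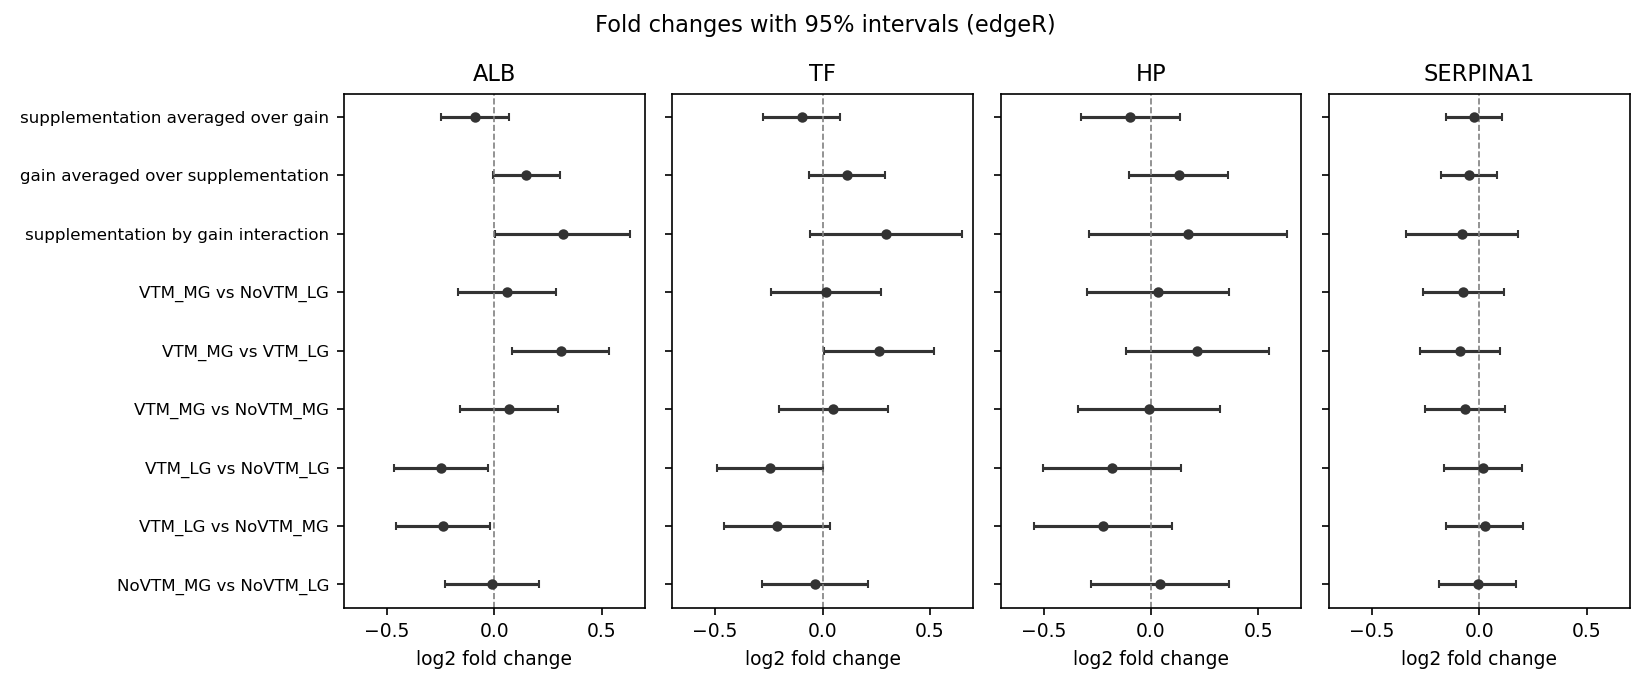
Log2 fold change of each gene in the 9 contrasts (points) with 95% intervals (bars) from edgeR; the dashed line is no change. ALB in VTM_MG against VTM_LG lies at 0.31 with an interval clear of 0 before adjustment over all genes, and every SERPINA1 interval crosses 0.

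With the interaction left aside, the widest limits of the 95% intervals were 0.723-fold and 1.45-fold for ALB and 0.711-fold and 1.43-fold for TF. For HP they were 0.685-fold and 1.46-fold, and for SERPINA1 0.825-fold and 1.15-fold. Larger changes than these lay outside the intervals, before any adjustment for the number of genes. The interaction is a ratio of fold changes. Its upper limits were 1.55 for ALB, 1.57 for TF and 1.55 for HP, and its lower limit for SERPINA1 was 0.788. In bulk liver, fewer hepatocytes and less RNA per hepatocyte cannot be told apart, and levels of marker genes for other liver cells were not analysed here.

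How far fetuses of the same group differed was not alike among the 4 genes. The within-group coefficient of variation (CV, the SD between fetuses of a group as a share of the mean, pooled over groups) was 10.9% for SERPINA1, with a 95% interval of 8.63% to 14.9%. It was 12.4% (9.84% to 16.9%) for ALB, 15.6% (12.3% to 21.2%) for TF and 22.7% (17.97% to 30.9%) for HP. These intervals take the spread to be the same in all groups. For ALB it was not alike, with an SD of 1031 CPM in NoVTM_LG and 6028 CPM in VTM_LG, so its interval is approximate. The median over all tested genes was 15.4%, with quartiles at 11.1% and 24.4%. SERPINA1 was thus below the lower quartile and HP within the upper part of the middle range: 23.8% of tested genes varied less than SERPINA1, 34.0% less than ALB, 51.2% less than TF and 72.0% less than HP. The genes with the highest mean CPM, which include ALB, TF and SERPINA1 but not HP, had a lower median CV of 12.5%. Beside these, TF varied more than the median gene, ALB was close to it and SERPINA1 varied less. For HP, counting error alone gives a CV of 6.89%.

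Within single groups, the spread of ALB and TF rested in part on 1 fetus. The CV of ALB was 19.9% in VTM_LG, but 9.03% without replicate 4 and 9.86% without replicates 4 and 7. It was 12.1% in NoVTM_MG and 11.6% in VTM_MG. VTM_LG was therefore the most spread group for ALB only with replicate 4 included. Without replicates 4 and 7, the pooled CV of ALB over the 4 groups was 9.81%.

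NoVTM_LG had the lowest CV of ALB, at 2.86%, with all 8 fetuses between 33802 and 37094 CPM and 0.232% of tested genes lower. Without replicate 7, the lowest fetus, it was 1.34%. This value depended on the scaling: as plain shares of counts, ALB in NoVTM_LG had a CV of 5.53%, and 5.25% of tested genes were lower. No test was made of the difference in spread between groups.

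The CV of TF was 22.6% in VTM_LG, but 12.2% without replicate 4 and 13.2% without replicates 4 and 7. It was 8.17% for NoVTM_LG, 16.2% for VTM_MG, and 14.4% for NoVTM_MG, where leaving out replicate 8, the highest fetus, gave 9.16%. HP stayed between 19.1% and 27.8%, and SERPINA1 between 9.498% and 13.3%. The median CV over all tested genes was 17.8% in VTM_LG, or 15.2% without replicate 4, and 12.9% in NoVTM_LG.

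**Figure D3:**
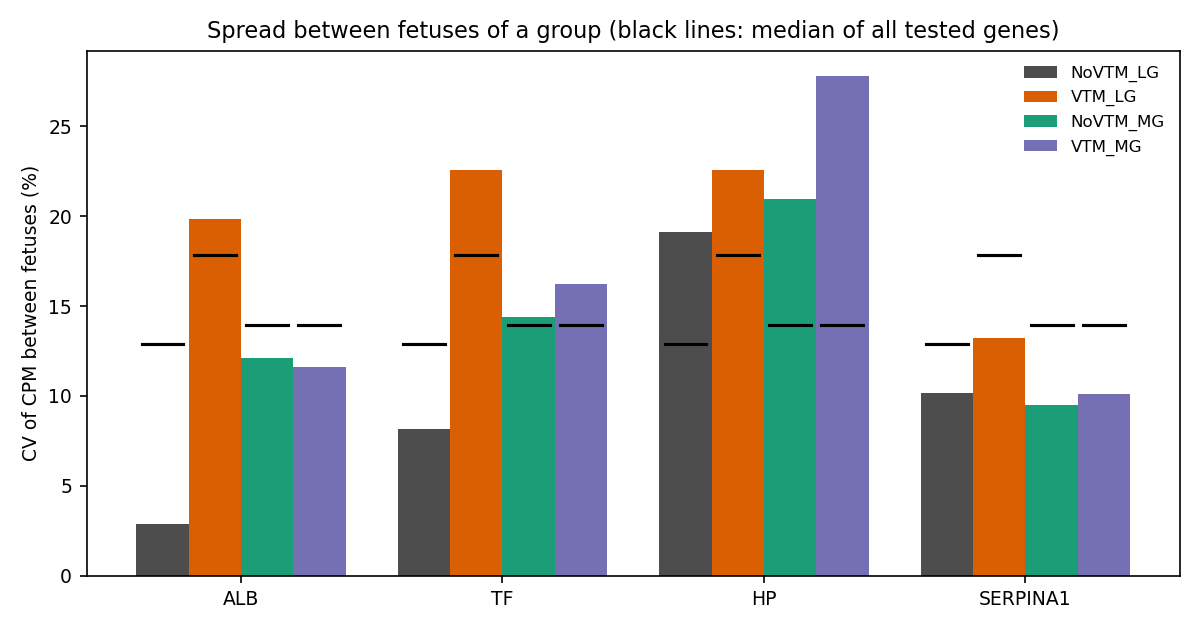
Coefficient of variation of CPM between fetuses (%), by gene and maternal group (bars), with the median of all tested genes in that group as a black line. The VTM_LG bars of ALB (19.9%) and TF (22.6%) fall to 9.03% and 12.2% without VTM_LG replicate 4, and SERPINA1 lies between 9.498% and 13.3%.

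The 4 genes stood at different distances from their medians in the fetus with the lowest ALB. In this fetus, VTM_LG replicate 4, ALB was at 17024 CPM, 46.9% of the median fetus, and TF at 6651 CPM, 45.1%. The other 30 fetuses had no ALB value below 27711 CPM and no TF value below 11208 CPM. SERPINA1 in the same library was at 31056 CPM, 86.7% of its median, and HP at 14.998 CPM, 101%. Of all tested genes, 5.82% were as low or lower than ALB relative to their own median in that library, and 5.09% as low or lower than TF. VTM_LG replicate 7, the other library that stood apart, had ALB at 91.2%, TF at 89.4%, SERPINA1 at 117% and HP at 60.4% of the median.

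ALB and TF varied together across fetuses. On log2 CPM over 31 fetuses, Pearson's r was 0.863 (permutation p = 1e-05, the smallest that 100000 permutations can give; adjusted p 6e-05 over the 6 pairs of genes), and Spearman's rho was 0.553 (permutation test, adjusted p 0.0096). With the 2 fetuses farthest from the ALB median left out, r was 0.691. Without VTM_LG replicates 4 and 7, r was 0.677 (permutation test, adjusted p 0.00042) and rho was 0.482, whose adjusted p of 0.0528 in the permutation test no longer passed. The libraries share their scaling, so values of 2 highly read genes in a library are not free of each other.

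The r of ALB and TF ranged widely between groups. Within VTM_LG r was 0.978 (n = 8), or 0.867 without replicate 4, within NoVTM_MG it was 0.666 (n = 8) and within VTM_MG 0.604 (n = 7). Within NoVTM_LG, where ALB hardly varied, r was -0.07 (n = 8). With each group's mean subtracted, r over the 31 fetuses was 0.829. Differences in r between groups were not tested.

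SERPINA1 followed TF more loosely. Their r was 0.416 (permutation p = 0.0157, adjusted p 0.0472) and rho was 0.456 (permutation test, adjusted p 0.032). It depended on the setting: r was 0.266 (permutation test, adjusted p 0.365) without the 2 fetuses farthest from the TF median, VTM_LG replicates 4 and 8, so that it no longer passed without those samples. With each group's mean subtracted, r was 0.539 (permutation test, adjusted p 0.0129) and rho was 0.519 (adjusted p 0.0162). By group, r of TF and SERPINA1 was 0.780 for NoVTM_LG and 0.760 for VTM_LG, but 0.142 for NoVTM_MG and 0.300 for VTM_MG. ALB and SERPINA1 gave r = 0.269 and rho = 0.212 (permutation tests, adjusted p 0.293 and 0.446). With group means subtracted, r was 0.419 and did not pass (permutation test, adjusted p 0.0775), while rho was 0.454 and passed (permutation test, adjusted p 0.0308).

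HP was related to none of the other 3 genes past the threshold. Its r was 0.0047 with ALB, -0.08 with TF and -0.14 with SERPINA1, and the adjusted p-values of these permutation tests were 0.98, 0.816 and 0.654.

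**Figure D4:**
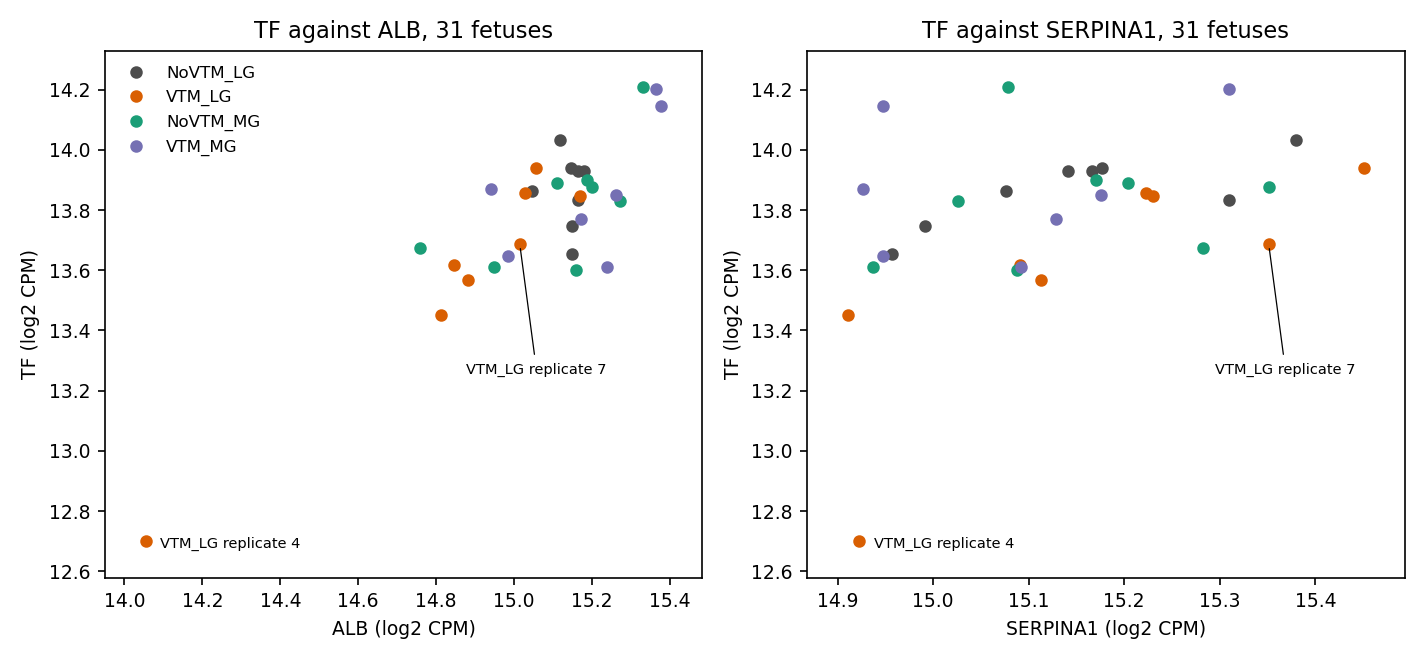
TF against ALB (left) and against SERPINA1 (right), as log2 CPM, 1 point per fetus, coloured by maternal group. ALB and TF rise together (r = 0.863, or 0.677 without VTM_LG replicates 4 and 7), with VTM_LG replicate 4 far below the rest. TF against SERPINA1 is more scattered (r = 0.416, or 0.400 without those libraries).

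Each gene was also ranked against 13178 tested genes with a mean of at least 1 CPM, by Pearson's r of log2 CPM over the 31 fetuses, as a description. The gene most like ALB was ENSBTAG00000022120, with r = 0.904, and the same gene was most like TF, with r = 0.918. TF had rank 7 in the order of likeness to ALB, and ALB had rank 8 in the order for TF; without VTM_LG replicates 4 and 7 these ranks were 19 and 36. SERPINA1 had rank 3316 and HP rank 6737 in the order for ALB. ENSBTAG00000022120 had a mean of 6326 CPM and, like ALB and TF, a wide range, from 2783 to 7779 CPM. Without VTM_LG replicates 4 and 7 it was still first for TF, with r = 0.805, while for ALB it had rank 6 and ENSBTAG00000004226 was first, with r = 0.802.

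The most similar gene to SERPINA1 was ENSBTAG00000012071 (r = 0.862, mean 238 CPM), and to HP it was ENSBTAG00000020580 (r = 0.841, mean 2.71 CPM). Both stayed first without the 2 VTM_LG libraries, with r of 0.853 and 0.818. Neither was among the 4 genes, and neither was the gene most like ALB and TF.

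Ratios of raw counts within a library do not depend on how libraries are scaled, and these were examined after the group values had been seen. SERPINA1, the denominator, had its highest mean CPM in VTM_LG and its lowest in VTM_MG. The p-values of the ratios do not allow for choosing the denominator or the pair of groups from the same data. There were 1.09 ± 0.118 ALB counts per SERPINA1 count in VTM_MG (SD, n = 7; 1.01 to 1.35) and 0.821 ± 0.128 in VTM_LG (n = 8; 0.548 to 0.959). NoVTM_LG had 0.997 ± 0.101 and NoVTM_MG 0.997 ± 0.160 (n = 8 each). No VTM_LG fetus reached the lowest VTM_MG fetus. The difference of 0.268 had an exact permutation p of 0.000311, two-sided, beside a smallest reachable p of 0.000155. The same test on the ratio of each of 14227 tested genes to SERPINA1 gave ALB an adjusted p of 0.553. Even at the smallest reachable p, a ratio passes this adjustment only if many other ratios have a p as low. Here 7 ratios, that of ALB included, had a p as small as that of ALB, and 0 passed. The adjusted p therefore cannot decide whether the groups differ. The unadjusted p cannot decide it either, because among 14227 ratios some can reach a p this small without any difference.

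Of these 14227 ratios, 7, or 0.0492%, were higher in VTM_MG with no overlap, that of ALB among them. VTM_MG had the higher mean in 66.9% of the ratios, which all share SERPINA1 as the denominator. Without VTM_LG replicates 4 and 7, the difference in the ALB ratio was 0.217 (exact permutation p = 0.000583, adjusted p 0.926). This p is the smallest that the remaining fetuses can give, and the groups still did not overlap. With fewer fetuses the smallest reachable p is higher, so the adjusted p is no measure of a weaker difference. Other settings gave adjusted p-values from 0.0999 to 0.968 for the ALB ratio.

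TF per SERPINA1 count was 0.439 ± 0.0731 in VTM_MG, 0.340 ± 0.0557 in VTM_LG, 0.411 ± 0.0249 in NoVTM_LG and 0.405 ± 0.0671 in NoVTM_MG (SD). VTM_MG and VTM_LG overlapped, and their difference of 0.0990 had an exact permutation p of 0.00233 and an adjusted p of 0.588. VTM_LG against NoVTM_LG has the same VTM_LG libraries in it. There the difference in TF per SERPINA1 count was -0.0716 (exact permutation p = 0.00109). For ALB per SERPINA1 count it was -0.177 (exact permutation p = 0.00544). Neither passed after adjustment. Both p-values lay above the smallest reachable p of 0.000155, so that limit alone does not account for this. Of the 14227 ratios, 9 had a p as small as that of TF and 45 as small as that of ALB. TF per ALB count was nearly level, with group means between 0.403 and 0.415 and 0.411 ± 0.0384 over the 31 fetuses. The group means of TF per ALB count differed by less than the SD of any group, while ALB per SERPINA1 count was lowest in VTM_LG.

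**Figure D5:**
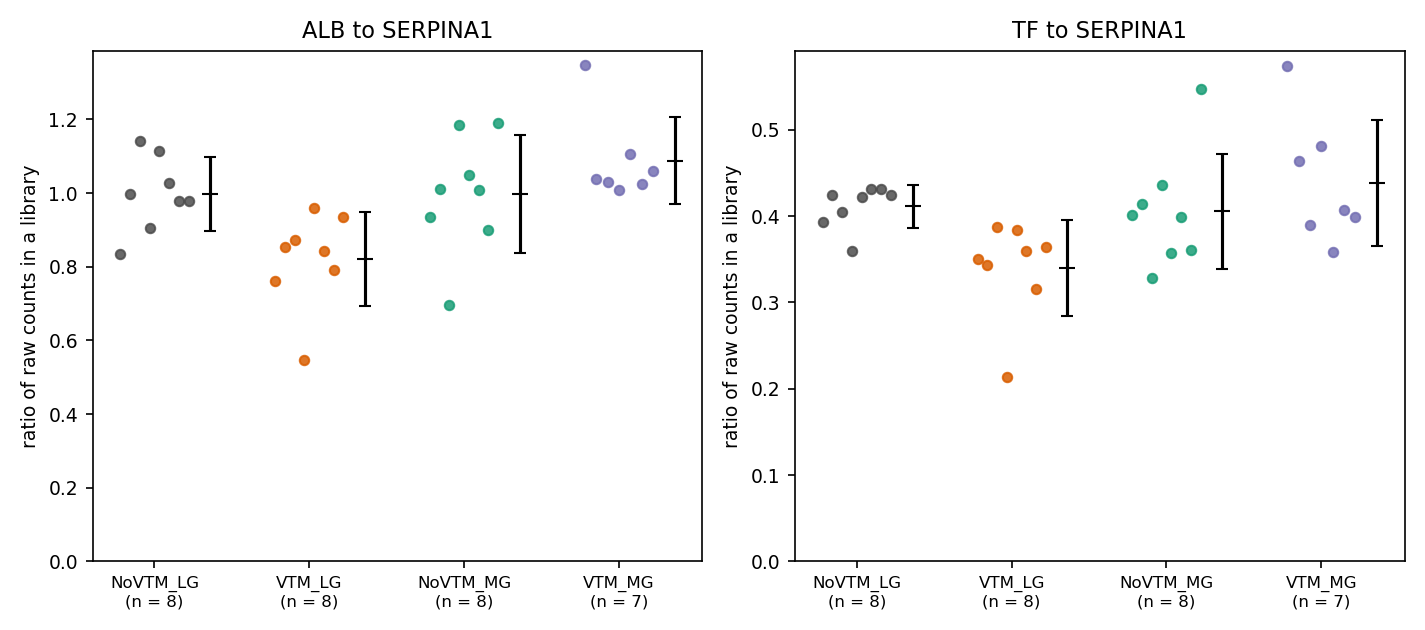
Counts of ALB (left) and TF (right) per SERPINA1 count in each fetus, by maternal group; points are fetuses and the bar is the mean with 1 SD. For ALB the VTM_LG fetuses (0.548 to 0.959) lie below all VTM_MG fetuses (1.01 to 1.35), and for TF these groups overlap.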

How the data were processed

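Liver of 31 fetuses was sequenced as strand-specific libraries with paired reads of 150 bp, per the labels. Tools named in the submitters' processing notes are CASAVA, FastQC 0.11.8, MultiQC 1.9, STAR 2.7.3a and edgeR. Genome build, annotation, counting program and strand setting: not given in the sources used here, so that reads shared with similar or overlapping genes could not be checked. The deposited values are raw counts per gene for 27607 Ensembl identifiers. Columns were matched to samples by title, and groups came from the treatment label. Replicate numbers follow sample order and pair nothing. The labels tie no sample to a batch or breeding group, so neither could be modelled. The p-values reflect variation among fetuses of different dams with 1 common sire.

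The reference gene table (37063 genes) matched 0 identifiers, so lists of other plasma protein genes and of cell type markers could not be run, and sequences, positions and gene lengths were not used here. The 4 genes and these lists were chosen with earlier results of these data known. Named genes are the 4 and, for each, the gene with the highest Pearson r.

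Counts were tested with edgeR 4.0.16 in R 4.3.3. A filterByExpr filter (minimum count 10, minimum total 15) left 14228 genes, all 4 among them. TMM scaling was used, and the quasi-likelihood F test was fitted with a mean for each group over all libraries, with Benjamini-Hochberg adjustment over all genes and a threshold of 0.05. Log2 CPM for correlations and the first principal component used a prior count of 2. Correlations were tested with 100000 permutations, and ratios with exact permutation tests of group labels, adjusted over all genes. The within-group CV has a 95% chi-square interval. The procedure was tested on simulated data. Alternatives were 2 other scalings, no filter, DESeq2 1.42.0, limma 3.58.1 (voom, quality weights), only the compared groups, and leaving out libraries; those for the ratios and for the CV within single groups were chosen after seeing the data.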

Additional observations from a re-analysis of the deposited data

Results flagged for a closer look

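Of 28 groups of values examined for a sample far from the others of its group (Dixon's criterion, which chance meets at a rate of about 5%), 5 had one. ALB in NoVTM_LG was lowest in replicate 7, at 33802 CPM, below 7 fetuses that lay close together. ALB in VTM_LG was lowest in replicate 4, at 17024 CPM. TF in NoVTM_MG was highest in replicate 8, at 18929 CPM. The ratio of ALB to SERPINA1 counts in VTM_MG was highest in replicate 1, at 1.35. The ratio of TF to SERPINA1 counts in VTM_LG was lowest in replicate 4, at 0.214.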

How the results depend on the processing

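None of the 4 genes passed the threshold in 1356 values under other settings; the smallest adjusted p was 0.136 (edgeR), for ALB in VTM_MG against VTM_LG without VTM_LG replicate 8. The direction of their log2 fold changes was kept in 237 of 240 values under other scalings, filters, tools and samples, and in 1081 of 1116 with 1 library left out. The exceptions among the 240 were HP in VTM_MG against NoVTM_MG, at 0.017 by library total and 0.048 by voom, and ALB in NoVTM_MG against NoVTM_LG, at 0.0054 by voom. With 1 library left out, the log2 fold changes that changed sign were near 0. In NoVTM_MG against NoVTM_LG they ran from -0.0378 to 0.0366 for ALB, -0.0251 to 0.105 for HP and -0.0409 to 0.0292 for SERPINA1. In VTM_MG against NoVTM_LG they ran from -0.0625 to 0.131 for HP and -0.0430 to 0.0578 for TF, and in VTM_MG against NoVTM_MG from -0.105 to 0.0877 for HP and -0.0094 to 0.112 for TF. For SERPINA1 they ran from -0.0278 to 0.0490 in VTM_LG against NoVTM_LG and -0.0197 to 0.0521 in VTM_LG against NoVTM_MG. Between NoVTM_MG and NoVTM_LG, the difference in the ratio to SERPINA1 ran from -0.0278 to 0.0428 for ALB and -0.0261 to 0.00511 for TF. The relation of TF and SERPINA1 no longer passed at r = 0.403 by RLE scaling, 0.361 by library total, 0.400 without VTM_LG replicates 4 and 7 and 0.266 without the 2 farthest fetuses, but it was 0.539 and passed with group means subtracted, and r ran from 0.338 to 0.501 with 1 library left out. For ALB and HP, r was -0.163 with group means subtracted and -0.0721 to 0.0985 with 1 library left out. For TF and HP it was -0.168 to 0.0343, and for HP and SERPINA1 0.0435 without the 2 farthest fetuses. Of all genes, edgeR called 3 for gain and 0 for the other contrasts. DESeq2 called 9 for gain, 3 for supplementation, 9 for NoVTM_MG against NoVTM_LG, 6 for VTM_LG against NoVTM_MG, and 1 each for VTM_MG against NoVTM_LG and against VTM_LG. Voom called 5 for gain, 2 for supplementation and 2 for NoVTM_MG against NoVTM_LG. Library total alone gave 1 for gain, and the compared groups alone gave 1 for VTM_LG against NoVTM_MG. Without VTM_LG replicates 4 and 7 there was 1 for supplementation, 1 for VTM_LG against NoVTM_MG and 1 for NoVTM_MG against NoVTM_LG. With 1 library left out, calls ran from 0 to 7 for gain, 0 to 3 for supplementation, 0 to 23 for VTM_MG against VTM_LG, 0 to 2 for VTM_LG against NoVTM_MG and 0 to 7 for NoVTM_MG against NoVTM_LG. The causes of these changes were not tested. Without VTM_LG replicates 4 and 7 the within-group CV of ALB was 9.81%. No paired analysis was possible because the labels give no replicate numbers that groups share. Depth limits HP alone among the 4 genes, at 111 to 295 counts per library.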
